A study of Homo sapiens with 3 samples.

Results

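The 9 genes described here, TFAP2A, TFAP2B, TFAP2C, DLX5, DLX6, MSX1, MSX2, GRHL2 and CDH1, are named by symbol as regulators and one adhesion gene of surface ectoderm and its border with the neural plate, and they are 9 of the 32738 genes of the count table. They were followed by day and by cluster of cells, together with the cells that also held UMIs of SFRP2 or SOX2. The cells came from chambered cardiac organoids (CCOs) grown from H7, a line of human embryonic stem cells, by modulation of Wnt signalling, and dissociated at day 8 (D8), day 14 (D14) and day 21 (D21). All days share this 1 line, without a treated arm, and each day is 1 droplet library. By the study's methods the organoids were moved at D14 from growth factor medium to RPMI/B27 in a spinner flask, so D21 also differs in medium and culture format. Age, culture and library cannot be told apart, and no test between days was made. Reads carry a unique molecular identifier (UMI), so that each captured mRNA molecule is counted once.

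In the embryo, surface ectoderm is the outer sheet that forms epidermis, and the plate border is the strip between it and the neural plate from which neural crest and placodes arise. AP-2 factors (TFAP2A, TFAP2B and TFAP2C) and the homeodomain factors DLX5, DLX6, MSX1 and MSX2 act early in this territory, in a setting of BMP signalling, and the Grainyhead-like factor GRHL2 acts in epithelia, where CDH1 encodes the adhesion protein E-cadherin. None of them is particular to ectoderm: MSX1 and MSX2 are also used in heart cushion and other mesenchyme, and CDH1 and GRHL2 in gut epithelium and liver precursors. SFRP2, a secreted Wnt modulator, and SOX2, a factor of pluripotent and neural cells, are the partner genes.

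Of 2657, 3585 and 1946 kept cells at D8, D14 and D21, the median depth was 15316, 12282 and 14106 UMIs. Between libraries, 9 to 14 kept cell barcodes were shared by each pair of days. Intervals below are 95% intervals of counting error alone, since no replicate was made. All 9 genes were detected in 10 or more barcodes and so entered the set of 20394 genes against which counts are set. The 9 genes were chosen with earlier results of these data known, so counts of members beside a share of all genes are descriptions. Cells were clustered without these 9 genes, without SFRP2 and SOX2 and without 10 relatives from the same families. The clusters were thus not built from the values of these genes. All other genes named below could take part in the clustering.

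From the RefSeq promoter table (GRCh38.p14), 8 promoters were read for 7 of these 11 genes. None was read for TFAP2C, DLX5, GRHL2 and CDH1. The search did not cover the whole table, so this does not show that the table lacks them. The 250 bases before the start are shown, 5′ to 3′, for TFAP2A, which has a pair of starts, and for DLX6 and MSX2. Capitals mark the letters GCCNNNGGC, an AP-2 core motif that reads the same on both strands.

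TFAP2A, chr6:10412392-10412641, minus strand: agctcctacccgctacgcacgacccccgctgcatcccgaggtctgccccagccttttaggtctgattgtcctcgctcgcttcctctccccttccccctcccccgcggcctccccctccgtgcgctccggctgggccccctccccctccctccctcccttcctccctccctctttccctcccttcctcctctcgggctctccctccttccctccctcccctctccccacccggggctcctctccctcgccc
TFAP2A, chr6:10419660-10419909, minus strand: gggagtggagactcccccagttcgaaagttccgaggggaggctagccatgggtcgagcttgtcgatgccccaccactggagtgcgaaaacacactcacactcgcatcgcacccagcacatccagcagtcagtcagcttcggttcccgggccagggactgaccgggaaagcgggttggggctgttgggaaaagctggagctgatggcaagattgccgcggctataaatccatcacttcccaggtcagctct
DLX6, chr7:97005303-97005552, plus strand: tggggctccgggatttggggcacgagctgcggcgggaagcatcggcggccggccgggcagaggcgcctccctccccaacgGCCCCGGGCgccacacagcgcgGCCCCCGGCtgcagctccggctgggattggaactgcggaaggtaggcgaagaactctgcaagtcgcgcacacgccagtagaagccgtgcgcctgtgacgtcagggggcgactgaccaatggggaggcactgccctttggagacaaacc
MSX2, chr5:174724332-174724581, plus strand: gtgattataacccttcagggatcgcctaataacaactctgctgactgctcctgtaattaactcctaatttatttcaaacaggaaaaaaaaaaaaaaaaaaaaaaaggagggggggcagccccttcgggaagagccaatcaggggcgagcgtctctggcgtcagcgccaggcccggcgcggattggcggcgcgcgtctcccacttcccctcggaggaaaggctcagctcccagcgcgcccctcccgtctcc

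DLX6 held 2 such matches, and the windows of TFAP2A, TFAP2B, MSX1 and MSX2 held 0. SOX2 held 1 match and SFRP2 held 0. Among all 35116 promoters searched, 19.8% held at least 1, in windows whose base composition differs (the DLX6 window is 70% G or C). The homeodomain letters TAATTG, searched on both strands, stood once before TFAP2B and in 6.7% of all promoters, and the Grainyhead-like letters AACCGGTT were in 0 of the 8 and in 0.117% of all. These matches describe letters, not sites in use.

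Over all kept cells, the members fell into genes seen at D8 and D14 that were nearly gone at D21, and genes that stayed. The level of TFAP2A in CPM (UMIs per 1000000) was 9.49 at D8, 15.9 at D14 and 0.13 at D21, the last from 4 UMIs against 801 a week before. DLX5 was at 8.47, 5.51 and 0.615 CPM, and DLX6, its neighbour on the chromosome, at 1.33, 2.13 and 0.0324 CPM. TFAP2C was at 5.6 CPM at D8, 1.05 at D14 and 0.0324 at D21, the last from 1 UMI. TFAP2B was the least abundant member, with 23, 32 and 0 UMIs, and a count of 0 allows up to 0.0971 CPM.

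The MSX pair and the epithelial genes ran differently. MSX2, the most abundant member at D8 and D14, was at 28.1 CPM at D8, 54.7 at D14 and 7.31 at D21. MSX1 was at 10.8, 17.4 and 8.09 CPM. GRHL2 was rare throughout, with 55, 65 and 12 UMIs (1.18, 1.29 and 0.388 CPM). CDH1 was the member that was not lower at D21, with 15.3, 11.6 and 19 CPM. SFRP2 went from 40.1 to 5.33 to 1.2 CPM, and SOX2 from 18.2 to 4.3 to 0.13 CPM.

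**Figure D1:**
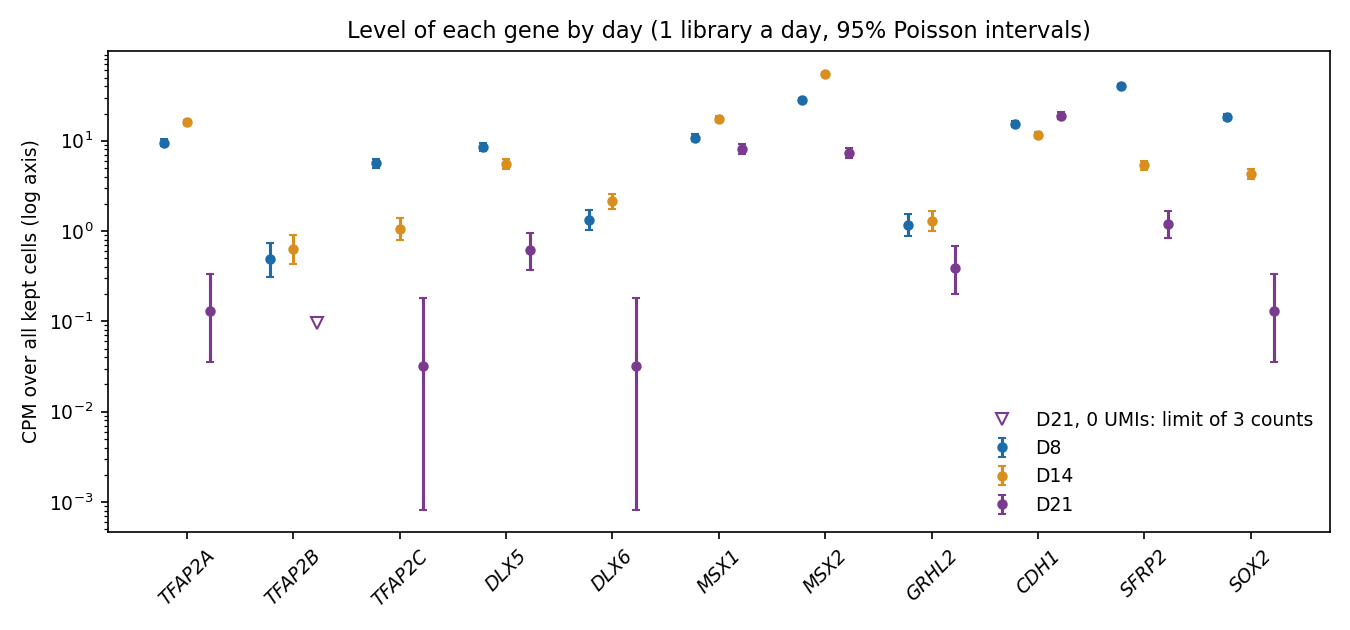
Level of each gene over all kept cells at D8, D14 and D21 (CPM, log axis), with points for the 1 library of each day and bars for 95% Poisson intervals; the open triangle is the limit of 3 counts where no UMI was found. TFAP2A is at 9.49, 15.9 and 0.13 CPM, whereas CDH1 stays between 11.6 and 19 CPM.

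A member was taken as higher or lower between days when its level differed at least 2-fold with 1 CPM added to both. From D8 to D14, 1 of 9 members was lower, against 1.36% of all genes, and 0 of 9 were higher, against 6.22% of all genes. The lower member was TFAP2C, 5.31-fold lower at D14 (interval 3.94 to 7.28). MSX2 was 1.95-fold higher at D14 (1.82 to 2.08), TFAP2A 1.68-fold (1.49 to 1.89), MSX1 1.62-fold (1.45 to 1.81) and DLX6 1.61-fold (1.16 to 2.23), whose intervals lie above 1 on counting error alone. For GRHL2 and TFAP2B the intervals (0.756 to 1.61 and 0.735 to 2.32) include 1, so no difference was detectable at this depth.

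From D14 to D21, 5 of 9 members were lower (TFAP2A, DLX5, DLX6, MSX1 and MSX2) against 8.52% of all genes, and 0 of 9 were higher against 4.7%. TFAP2A was 123-fold lower at D21 (interval 47.9 to 453), MSX2 7.47-fold (6.52 to 8.6), DLX5 8.96-fold (5.63 to 15.1) and MSX1 2.16-fold (1.87 to 2.49). DLX6, with 107 UMIs at D14 and 1 at D21, had a ratio of 65.8 (11.6 to 2623). TFAP2C missed the limit by the CPM added (log2 ratio -0.99), with 53 UMIs against 1 and a ratio of 32.6 (5.6 to 1311), and TFAP2B was at least 6.56-fold lower, taking 3 counts as the limit at D21. GRHL2 was 3.33-fold lower (1.78 to 6.78), and CDH1 alone among the 9 was higher, 1.64-fold (1.46 to 1.84). With a mitochondrial limit of 5% CDH1 turned to lower at D21, at -1.29 on the log2 scale. With TMM or median-of-ratios scaling, which moved all D21 over D14 values by 0.28 and 0.3 on the log2 scale, MSX1 no longer reached 2-fold (-0.77 and -0.74 on the log2 scale), and the share of higher among all genes called between these days went from 35.6% to 53% and 54.3%. Over all cells, fewer cells of a type and less RNA per cell cannot be told apart, so the clusters were read next.

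The 8188 kept cells formed 19 clusters. Cluster 13, which had the highest SFRP2 level among D8 cells and is called the SFRP2-high cluster below, held 202 D8 cells, 76 D14 cells and no D21 cell. It received no cell type name: at D8, 5 of 8 neural ectoderm markers and 5 of 9 pluripotent markers were at least 2-fold above the other cells of the day. Its leading genes at D8 were SFRP2, POU5F1, SOX2, CRABP1, CLDN10 and RARRES2. Its cells were deeper than the day's median, with medians of 21997 and 20083 UMIs, and its median doublet score was 0.0612. Clusters ranged from 0.0216 to 0.186, the latter in cluster 17 alone, and the next highest score was 0.0688.

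At D8 the SFRP2-high cluster held most of the TFAP2A, TFAP2C, DLX5 and DLX6 molecules of the organoids. It made up 7.6% of the cells and 10.8% of the UMIs of the day, and held 93.5% of the DLX6 UMIs (interval 84.3 to 98.2), 92.2% of the DLX5 UMIs (89.1 to 94.6), 84.7% of the TFAP2A UMIs (81 to 87.9) and 57.6% of the TFAP2C UMIs (51.4 to 63.7). These 4 of 9 members had more than 50% of their UMIs in the cluster. The share of all genes above this limit was not counted, here or at D14, so such counts are descriptions. By comparison, the cluster held 91.1% of the SFRP2 and 85.4% of the SOX2 UMIs, the former being the value that chose it. It held 44% of the MSX2, 40% of the GRHL2, 34.8% of the TFAP2B and 33.4% of the CDH1 UMIs, but only 3.78% of the MSX1 UMIs.

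The levels in these 202 D8 cells were set against those of the other D8 cells. TFAP2A was at 74.3 CPM (67 to 82.2) against 1.63 CPM in the other D8 cells, a ratio of 45.6 (35.1 to 59.9). DLX5 was at 72.1 CPM (64.9 to 79.9) against 0.743, and DLX6 at 11.5 CPM (8.7 to 14.8) against 0.0959, from 4 UMIs. TFAP2C stood at 29.8 CPM (25.3 to 35) against 2.66. MSX2 was the most abundant member of the cluster at 114 CPM (105 to 124), yet its ratio to the other cells, at 17.7 CPM, was 6.46 (5.78 to 7.21), since other D8 clusters also held it. CDH1 was at 47.2 CPM (41.4 to 53.6) against 11.4. MSX1 was the one member lower in the cluster than outside it, at 3.75 CPM (2.26 to 5.86) against 11.6. With 10 CPM added to both levels, 6 of 9 members were at least 2-fold higher in the cluster at D8 (TFAP2A, TFAP2C, DLX5, DLX6, MSX2 and CDH1), where 0.755% of all genes were. With a mitochondrial limit of 5% the cluster kept 137 D8 cells and 3 of 9 members were higher.

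At D14 the same cluster held 76 cells with more TFAP2A and less SFRP2. TFAP2A was at 218 CPM (196 to 241), 2.93-fold above its D8 level in the cluster (2.54 to 3.4), and its UMIs were in 70 of the 76 cells against 113 of the 202 cells at D8. MSX1 rose from 3.75 to 19.3 CPM, a ratio of 5.14 (2.84 to 9.56), and at D14 the cluster no longer lay below the other cells, which were at 17.4 CPM. SFRP2 was 4.02-fold lower (3.39 to 4.79) and SOX2 2.56-fold lower (2.07 to 3.21). Between these lay DLX6, with 11.5 and 11.7 CPM, and DLX5, with 72.1 and 39.1 CPM. Within the cluster, 2 of 9 members (TFAP2A and MSX1) were at least 2-fold higher at D14 with 10 CPM added, against 1.53% of all genes, and 0 of 9 were lower, against 1.34%. TFAP2C went from 29.8 to 15.2 CPM, and its 5.31-fold lower level over all cells stood beside fewer cells of the cluster (7.6% and 2.12% of all cells) and a 1.96-fold lower level within it (1.29 to 3.1). In the other cells TFAP2C was lower at D14 as well, at 2.66 CPM from 111 UMIs at D8 and 0.556 CPM from 27 UMIs at D14. The changes within the cluster depend on which of its D8 cells are compared: in 61 of them, described below, of which 54 clustered with most of the D14 cells under another filter, SFRP2 was at 111 CPM and TFAP2C at 61.6 CPM, against 84.1 and 15.2 CPM at D14.

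Against the other D14 cells, 5 of 9 members were at least 2-fold higher in the cluster (TFAP2A, TFAP2C, DLX5, MSX2 and CDH1), where 1.03% of all genes were. At D14, however, 0 of 9 members had more than 50% of their UMIs in it: it held 46.6% of the TFAP2A UMIs (43.1 to 50.1), 24.2% of the DLX5, 18.7% of the DLX6 and 11% of the MSX2 UMIs, in 3.41% of the UMIs of the day. TFAP2B, with 15 of its 32 UMIs in the cluster, was at 8.76 CPM (4.91 to 14.5), DLX6 at 11.7 CPM (7.14 to 18.1) and GRHL2 at 8.18 CPM (4.47 to 13.7). SFRP2 itself was in 12 of the 76 cells. At D14 the 27 cells of cluster 0 held more of it, at 153 CPM from 81 UMIs against 84.1 CPM in the SFRP2-high cluster. The name of the cluster thus describes D8 only. With 3000 variable genes, or a mitochondrial limit of 5% or 20%, 68, 72 and 69 of these 76 cells joined a cluster made mainly (56.8%, 60.1% and 85.5%) of cells of cluster 7, described below.

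**Figure D2:**
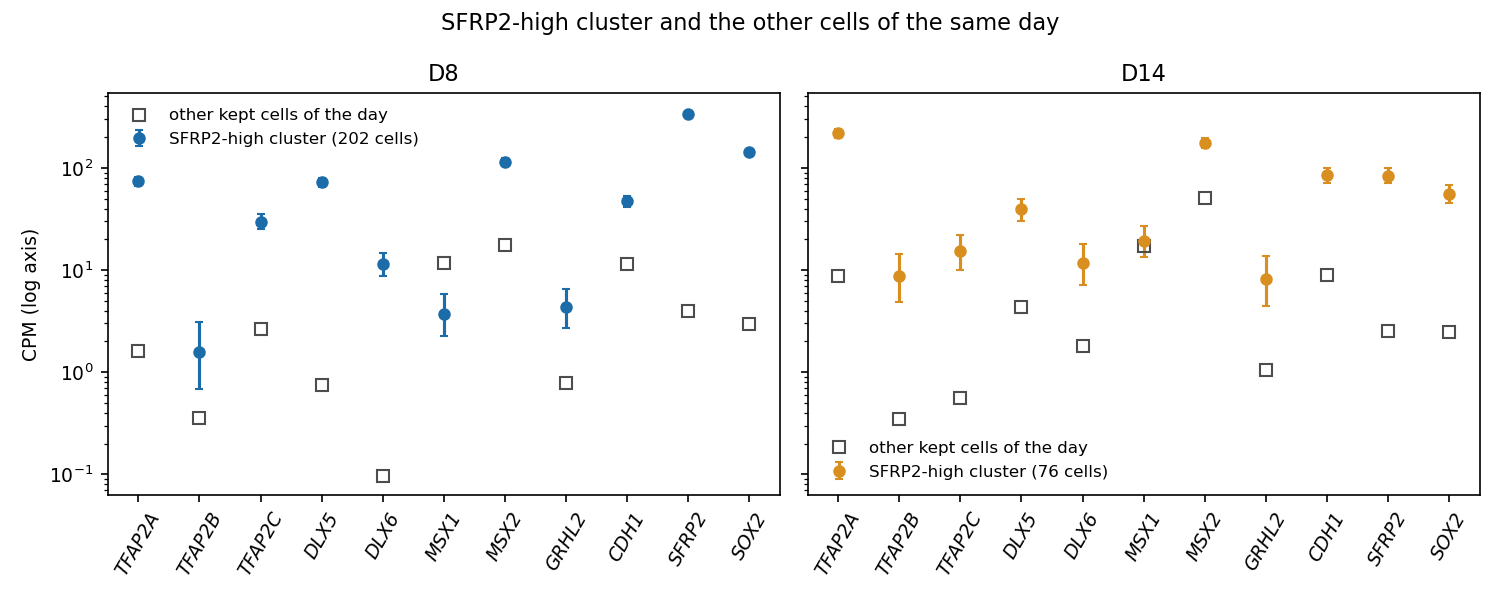
Level of each gene (CPM, log axis) in the SFRP2-high cluster (filled points with 95% Poisson intervals, 202 cells at D8 and 76 at D14) and in all other kept cells of the same day (open squares). TFAP2A lies at 74.3 and 218 CPM in the cluster against 1.63 and 8.82 CPM outside it, while MSX1 lies below the other cells at D8.

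Outside the SFRP2-high cluster, TFAP2A and MSX2 were also high in cluster 11, a group of 312 D14 cells with EBF2, SST, TMEM100 and GAP43 among its leading genes that met too few markers of any list for a name. TFAP2A was at 51.5 CPM there (44.6 to 59.2), and MSX2 at 167 CPM (154 to 180), a level with an interval that overlaps that of the SFRP2-high cluster at D14 (176 CPM, 157 to 198). DLX5 was at 15.4 CPM (11.7 to 19.9). SFRP2 was at 4.18 CPM and SOX2 at 4.71 CPM in these cells, against 5.43 and 4.27 CPM in the other D14 cells (ratios 0.771, 0.434 to 1.28, and 1.1, 0.641 to 1.79). CDH1 was at 2.88 CPM and no GRHL2 UMI was found. Cluster 11 was picked because its TFAP2A level was the highest among the D14 clusters outside the SFRP2-high cluster. With 10 CPM added, 2 of 9 members were at least 2-fold higher in it, where 0.402% of all genes were. They were MSX2 and TFAP2A, the latter being the value that picked the cluster, so this count is a description. MSX2 was likewise at 168 CPM (135 to 207) in 27 D14 cells of cluster 0 and at 145 CPM (110 to 186) in 22 dividing D14 cells of cluster 9, so that 4 D14 groups had MSX2 levels with overlapping intervals.

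MSX1 followed another order. Its highest levels were in dividing D14 cells (45.8 CPM in 22 cells of cluster 9, interval 27.6 to 71.5, and 31.1 CPM in 429 cells of cluster 8, 27.2 to 35.3) and in 27 D14 cells of cluster 0 (39.7 CPM, 24.5 to 60.6). It was found in CM-like (cardiomyocyte-like) cells of every day, at 7.25, 5.69 and 5.4 CPM, as was MSX2, at 3.25, 9.39 and 12.2 CPM. The AP-2 and DLX genes were almost absent from CM-like cells: at D8, 494 CM-like cells held 2 TFAP2A, 2 DLX5, 1 DLX6, 9 TFAP2C and 0 GRHL2 UMIs.

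CDH1 and GRHL2 were found in several groups of cells. CDH1 was at 52.3 CPM (47 to 58.1) at D8 and 80 CPM (72.2 to 88.4) at D14 in cluster 7, whose leading genes include TTR, APOA1, HHEX and FOXA2, genes of foregut and liver endoderm. It was at 84.7 CPM (71.5 to 99.7) in the SFRP2-high cluster at D14 and at 74.5 CPM (68.5 to 81) in 306 hepatic endoderm-like cells at D21. The intervals of the D14 and D21 levels overlap one another, and the D8 level of cluster 7 lies below them. At D21, 95.6% of the CDH1 UMIs and all 12 GRHL2 UMIs were in the hepatic endoderm-like cluster. GRHL2 was at 9.97 CPM (7.35 to 13.2) in cluster 7 and 8.18 CPM (4.47 to 13.7) in the SFRP2-high cluster at D14. FOXA2, an endoderm factor looked at after its values were seen, was at 132 and 121 CPM in cluster 7 but at 1.38 and 0.584 CPM in the SFRP2-high cluster.

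**Figure D3:**
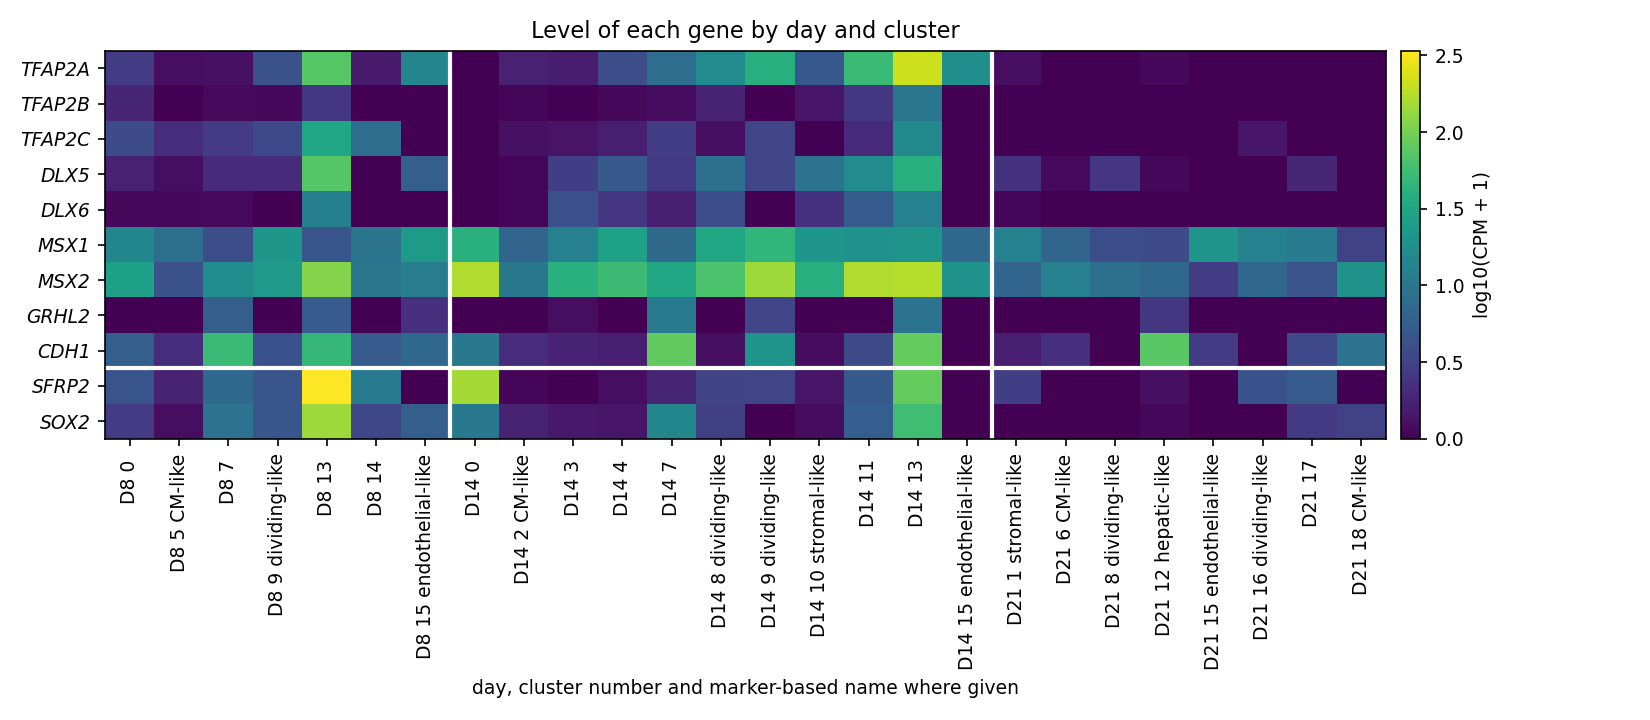
Level of each of the 9 members (above the line), SFRP2 and SOX2 as log10(CPM + 1), in every cluster with at least 20 cells of a day (26 groups, ordered by day). TFAP2A, TFAP2C, DLX5 and DLX6 are highest in cluster 13 at D8 and D14, TFAP2A and MSX2 also in cluster 11 at D14, CDH1 in clusters 7, 12 and 13, and the D21 columns are dark except for MSX1, MSX2 and CDH1.

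Over these 26 groups of cells, the levels of some members followed each other. As a description (log2(CPM + 1), groups that share libraries and differ in depth), Pearson's r was 0.9 for DLX5 with DLX6, 0.86 for GRHL2 with CDH1 and 0.82 for TFAP2A with DLX5, against 0.44 for MSX1 with MSX2 and -0.02 for MSX1 with TFAP2C. Among 12490 other genes at 10 CPM or more in some group, with the members, partners and relatives left out of the ranking, those most like GRHL2 were AP1M2 (0.933), ESRP1 (0.917) and PRSS22 (0.892), and those most like CDH1 were CLDN4 (0.918), MAL2 (0.912) and C1orf172 (0.905). LINC00545 was the first for DLX6 (0.92), DLX5 (0.842) and TFAP2B (0.843). It was followed by LRRC3B (0.822) and CLDN10 (0.761) for DLX6, by CLDN10 (0.787) and BHMT (0.762) for DLX5, and by WNT6 (0.843) and UTF1 (0.837) for TFAP2B. For TFAP2C they were ZNF296 (0.875), RHOV (0.857) and SFN (0.85), and for TFAP2A RARRES2 (0.775), BOD1 (0.754) and STOM (0.742). For MSX2 they were GATA3-AS1 (0.879), ZNF883 (0.842) and PRPH (0.822), and for MSX1 ZNF71 (0.791), SSBP4 (0.79) and C12orf10 (0.789). The first for SOX2 was SIX3 (0.937), and for SFRP2 it was CTD-2306M5.1 (0.838). The antisense gene DLX6-AS1 had 32 UMIs at D8 (29 in the SFRP2-high cluster) and 98 at D14. TFAP2A-AS1 had 6 and 10, and the sources used here do not give whether counting used strand. These partners and DLX6 or TFAP2A may share reads.

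Family relatives and lists of neighbouring fates were read in the same cluster. At D8, 2 of 9 tested relatives were at least 2-fold higher: GRHL3, a Grainyhead-like factor of early surface ectoderm, at 20.7 CPM against 0.743, and DLX3, a surface ectoderm homeodomain factor, at 13 CPM against 0.815. At D14 these were DLX2 (25.1 against 2.33 CPM) and DLX3 (11.1 against 0.474 CPM), and the N-cadherin gene CDH2 was lower (22.2 against 118.7 CPM). Of the surface ectoderm list, 2 of 7 tested genes were higher at each day, GRHL3 and DLX3 at D8 and WNT6 (69.5 against 0.35 CPM) and DLX3 at D14. Of the plate border or neural crest list, 1 of 10 was higher (NGFR, 24.3 CPM) and 1 lower (SNAI2, 8.3 against 32.7 CPM) at D8, and 0 of 10 either way at D14. Of the pre-placodal list, 1 of 10 was higher at D8 (HESX1, 20.5 CPM), and 0 of 10 at D14.

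Lists of other fates were counted beside them. Of the neural ectoderm list, 5 of 7 tested genes were higher at D8, among them SIX3 (46.8 CPM), ZIC2 (38.7), PAX6 (29.2) and SOX3 (21.1), and 1 of 7 at D14. Of the pluripotent list, 5 of 9 were higher at D8, with LIN28A at 497 CPM, POU5F1 at 243 CPM, L1TD1 at 159 CPM and DPPA4 at 62.6 CPM, and 4 of 9 at D14. Of the epithelial junction and keratin list, 8 of 20 were higher at D8 (CLDN6, EPCAM, CLDN4 and RAB25 at 348, 327, 88.1 and 88.1 CPM) and 16 of 20 at D14 (KRT19, KRT18, KRT8 and EPCAM at 2572, 1635, 1565 and 399 CPM). Of 5 amnion genes, 0 were higher at D8 and 3 at D14: IGFBP3 at 137 CPM, GABRP at 84.7 CPM and VTCN1 at 22.2 CPM. Of 10 BMP targets and ligands, 2 were lower at D8 (BMP2 and BAMBI) and 1 at D14 (BMP2), and 1 was higher at each day, ID3 at D8 (1420 against 658 CPM) and ID1 at D14 (3302 against 1474 CPM). Median log2 differences over the lists at D8 ranged from -0.01 for amnion to 1.42 for neural ectoderm, beside -0.02 over all genes. The genes named here as lower were chosen after their values were seen.

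The D8 cells of the SFRP2-high cluster were not uniform, and the members divided among them. When clustering was repeated on cells under a mitochondrial limit of 5%, 134 of its D8 cells stayed in the cluster with the most SFRP2 and 61 fell elsewhere, 54 of them in a cluster with 72 of the 76 D14 cells. Of the 316 cells of that receiving cluster, 190 (60.1%) were cells of cluster 7, which also held CDH1 and GRHL2. The members had no part in either clustering, and the median depth was 21354 UMIs in the 134 cells and 25520 in the 61. This division was chosen after its values were seen. SFRP2, which chose the cluster that the 134 cells stayed in, was at 480 CPM (456 to 505) in them and at 111 CPM (95.8 to 127) in the 61 cells, given as a description. CDH1 was at 13.5 CPM (9.75 to 18.3) in the 134 cells and 97.9 CPM (84 to 113) in the 61, a ratio of 7.24 (5.15 to 10.4). TFAP2C was at 11.3 and 61.6 CPM, a ratio of 5.47 (3.71 to 8.24), and GRHL2, from 5 and 16 UMIs, had a ratio of 5.47 (1.91 to 19.1).

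TFAP2A, DLX5 and DLX6 were present in both sets of cells. TFAP2A was at 62.8 CPM (54.3 to 72.2) in the 134 cells and 85.3 CPM (72.4 to 99.8) in the 61 cells. DLX5 was at 59.6 and 94.1 CPM, and DLX6 at 10.6 (7.31 to 14.9) and 13.2 CPM (8.46 to 19.6), which did not differ beyond counting error. MSX2 was 1.61-fold higher in the SFRP2-richer cells, at 134 against 83.1 CPM. SOX2 was at 138 CPM (125 to 152) and 160 CPM (142 to 179). Other genes outside the 9, chosen after their values were seen, were not left out of either clustering. Their division is therefore a description only. PAX6, a neural factor, had 147 UMIs in the 134 cells and 0 in the 61, and LHX2 had 73 and 0. The epithelial adhesion gene EPCAM was at 61.2 and 791 CPM, and POU5F1, a pluripotency factor, at 41.5 and 598 CPM.

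Members were also read cell by cell in the cluster at full depth. DLX5 was found in 95 of the 202 D8 cells, in 25 of the 30 DLX6-positive cells and in 72 of the 113 TFAP2A-positive cells. CDH1 was found in 65 of the 202 cells. It was in 44 of the 65 TFAP2C-positive cells and in 18 of the 18 GRHL2-positive cells, but in 4 of the 46 PAX6-positive cells. Pearson's r of log-normalized values, given as a description in sparse counts of 1 library, was 0.49 for DLX5 with DLX6, 0.45 for GRHL2 with CDH1, 0.42 for TFAP2A with DLX5 and -0.33 for SFRP2 with CDH1. With cells thinned to 4000 UMIs, DLX5 with DLX6 was at 0.18, GRHL2 with CDH1 at -0.03, TFAP2A with DLX5 at 0.12 and SFRP2 with CDH1 at -0.11.

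Co-detection with the partner genes was counted with every cell thinned to 4000 UMIs, since deeper cells show more genes. At D8, 107 cells had an SFRP2 UMI after thinning. TFAP2A was found in 16 of them (15%, interval 8.8 to 23.1) and in 38 of the 2550 SFRP2-negative cells (1.49%, 1.06 to 2.04). MSX2 was in 34 (31.8%, 23.1 to 41.5) against 6.9% of the negative cells, DLX5 in 11 (10.3%) against 1.29%, TFAP2C in 6 (5.61%) against 1.41% and DLX6 in 6 (5.61%) against 0.157%. For these 5 members the interval lay above that of the negative cells. CDH1 was in 5 (4.67%, 1.53 to 10.6) against 3.49%, GRHL2 in 1, MSX1 in 1 and TFAP2B in 0, so that for these 4 no higher share was detectable. Of the 107 SFRP2-positive cells, 87 were in the SFRP2-high cluster. The share of all genes with intervals apart was not counted, here or beside SOX2, so these counts of members are descriptions. As a background, the 494 CM-like D8 cells, with a median depth of 14452 UMIs before thinning, held TFAP2A and DLX6 in 0 (interval up to 0.744%), DLX5, TFAP2C and CDH1 in 2 each (0.405%) and MSX2 in 6 (1.21%).

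The share expected over all possible draws was computed too, an alternative added after seeing the data. It was 14.5% for TFAP2A in SFRP2-positive D8 cells, 27.9% for MSX2, 12.9% for DLX5, 5.89% for TFAP2C, 3.29% for DLX6 and 5.82% for CDH1, over an expected 120 SFRP2-positive cells. Without thinning, 251 D8 cells held SFRP2.

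SOX2-positive cells were much alike. Of 81 thinned D8 cells with SOX2, 14 had TFAP2A (17.3%, 9.78 to 27.3, against 1.55% of the negative cells), 24 had MSX2 (29.6% against 7.22%) and 11 had DLX5 (13.6% against 1.28%), and these 3 intervals lay above those of the negative cells. CDH1 was in 7 (8.64%, 3.55 to 17, against 3.38%), with an expected share over all draws of 12.2%. In other random draws of 4000 UMIs, 6 and 7 of 9 members stood above in SOX2-positive cells in place of 3. Without thinning 7 of 9 did, beside either partner, and MSX1 lay below in SFRP2-positive cells (7.17% against 13%).

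**Figure D4:**
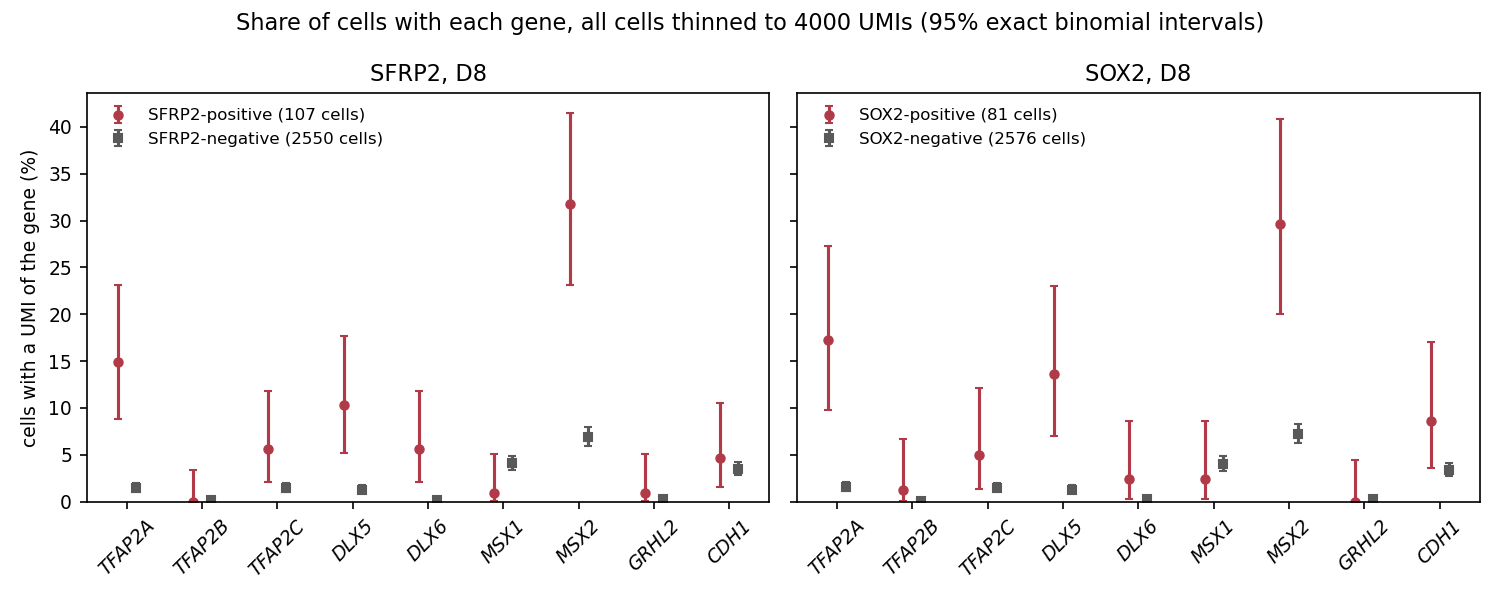
Share of D8 cells with a UMI of each member, in cells with and without SFRP2 (left) and with and without SOX2 (right), all thinned to 4000 UMIs; bars are 95% exact binomial intervals. TFAP2A, DLX5 and MSX2 stand above the negative cells in both panels, whereas CDH1, GRHL2, MSX1 and TFAP2B have overlapping intervals.

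The shares were then read inside and outside the cluster. Inside the SFRP2-high cluster at D8, TFAP2A was in 16 of 87 SFRP2-positive cells (18.4%) and in 24 of 115 SFRP2-negative cells (20.9%), and for every member the thinned intervals overlapped. At full depth, CDH1 was in 42 of 156 SFRP2-positive cells (26.9%, 20.1 to 34.6) and in 23 of 46 SFRP2-negative cells (50%, 34.9 to 65.1), and TFAP2C had the same counts, while the intervals of the other 7 members overlapped. Beside SOX2 the order differed: TFAP2A was in 97 of 158 SOX2-positive cells (61.4%) and 16 of 44 SOX2-negative cells (36.4%), and MSX2 in 127 (80.4%) and 22 (50%), both with intervals apart. Thinned, every member's intervals beside SOX2 overlapped inside the cluster. Outside the cluster, the 20 thinned SFRP2-positive D8 cells held TFAP2A in 0 and MSX2 in 1. At full depth, the 95 SFRP2-positive D8 cells there held TFAP2A in 8 (8.42%, 3.71 to 15.9), against 1.1% of the SFRP2-negative cells. MSX2 was in 28 of them (29.5%, 20.6 to 39.7), against 17.1%. Both intervals lay above those of the negative cells, and the intervals of the other members overlapped. The 20 thinned SOX2-positive D8 cells outside the cluster held TFAP2A in 3 (15%, 3.21 to 37.9), above the 11 of 2435 SOX2-negative cells (0.452%, 0.226 to 0.807). Of the 30 thinned D8 cells with both partners, 5 had TFAP2A, 5 had DLX5, 10 had MSX2 and 0 had MSX1.

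The cells holding a member were also read at full depth for the partners. Of 147 D8 cells with TFAP2A, 92 had SFRP2, 106 had SOX2, 77 had both and 26 had neither. Of 118 cells with DLX5 22 had neither, and of 34 cells with DLX6 3 had neither. Of all D8 cells, 2328 of 2657 had neither. The counts were 83 of 156 TFAP2C-positive, 225 of 314 CDH1-positive, 387 of 580 MSX2-positive and 297 of 330 MSX1-positive D8 cells. At D14 the partners were rare: of 229 TFAP2A-positive cells 185 had neither, and after thinning 16 cells had SFRP2 and 35 had SOX2. TFAP2A was in 3 of the 16 and in 8 of the 35 (22.9%, 10.4 to 40.1, against 3.24% of the SOX2-negative cells). At D21, 4 cells held TFAP2A, 1 of them with SFRP2 and 0 with SOX2.

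Cells with several members at once were counted last. After thinning, 3 or more of the 9 members were found in 15 of the 202 D8 cells of the SFRP2-high cluster (7.43%, 4.22 to 11.9) and in 16 of all 2657 D8 cells. At D14 the counts were 18 of 76 cells (23.7%, 14.7 to 34.8) and 28 of 3585. Cluster 11 held 4 such cells of 312, and cluster 7 held 1 of 209. At full depth they were 97 of the 202 D8 cells of the cluster (48%) and 61 of its 76 D14 cells (80.3%). Among all cells with neither partner, in any cluster, they were 33 of 2328 at D8 (1.42%) and 129 of 3476 at D14 (3.71%). Over all 1946 D21 cells they were 7 (0.36%), a share not to be set against those of the cluster.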

How the data were processed

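Cells of H7 CCOs at D8, D14 and D21 were captured with Chromium Single Cell 3′ v2 chemistry, 1 library per day. The deposited table holds raw UMI counts of 32738 genes in 17327 barcodes. Per the labels, the authors used Cell Ranger and the hg19 build, and their notes name Seurat 3.2.1. The Cell Ranger version and the strand setting are unstated (not given in the sources used here). Barcodes were assigned to days by their suffix.

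A barcode was kept as a cell if it held over 2000 but under 7500 genes and if 13 mitochondrial genes gave less than 10% of its UMIs, the limits of the study. These left 8188 cells with 46767738, 50247286 and 30898727 UMIs at D8, D14 and D21. Scrublet (scanpy 1.11.5) called 15 doublets, too few to have worked, so none were removed. Cells were clustered together with Seurat 5.3.0 (R 4.3.3; 2000 variable genes, of which the members, partners and relatives present were left out, 20 components, resolution 0.8). A cluster was named X-like if 3 or more of X's markers stood 2-fold above the day's other cells, with a lead of 2 over the next class. These limits were taken over from earlier work on these data, and the members and lists were chosen with earlier results of these data known. Groups had at least 20 cells.

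Levels are UMIs summed per group over the group's total, in CPM, with exact Poisson intervals. Shares have exact Clopper-Pearson intervals, and the interval of a ratio treats its 2 counts as an exact binomial split. Intervals are at 95% and cover counting error only. Calls are 2-fold changes with 10 CPM (group against the other cells) or 1 CPM (day against day) added, and no test was possible with 1 library per day. The limit for 0 UMIs is 3 counts. Named genes are all members and partners, the 3 most similar genes of each, the relatives, and the genes of each list with the highest level among those called. The fold and its interval were tried on simulated Poisson counts, for genes with larger counts only. That simulation held no variation between cells or libraries, so it cannot show how the intervals do under such variation or at low counts. Scaling alternatives used edgeR 4.0.16. One gene of the lists is not reported here.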

Additional observations from a re-analysis of the deposited data

Results flagged for a closer look

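The 906 D8 barcodes left out by the filter on cells, which enter no comparison above, held a signal of 2 epithelial members above the level of the kept cells. CDH1 was at 37.92 CPM there, from 130 UMIs (interval 31.7 to 45), against 15.3 CPM in kept cells. GRHL2 was at 2.917 CPM, from 10 UMIs (1.4 to 5.36), against 1.18 CPM. On the other days CDH1 was lower in left-out barcodes than in kept cells, at 8.3 against 11.6 CPM at D14 and 12.5 against 19 CPM at D21, and GRHL2 was at 1.28 against 1.29 CPM and 0.165 against 0.388 CPM. At D8, SOX2 was at 30.6 CPM against 18.2 CPM, and TFAP2A at 13.4 CPM (9.82 to 17.9) against 9.49 CPM. These barcodes hold few genes, very many genes or a high mitochondrial share, and which of these goes with the signal was not tested.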

How the results depend on the processing

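No called result changed direction. CDH1 at D21 over D14, under 2-fold at 0.66 on the log2 scale, turned to -1.29 with a mitochondrial limit of 5%. At resolution 0.4 the SFRP2-high cluster took in 466 cells of cluster 7: members with more than 50% of their UMIs in it became 7 at D8 and 4 at D14 (from 4 and 0), and 2 in place of 5 were 2-fold higher at D14. With a mitochondrial limit of 5%, 3 members in place of 6 were 2-fold higher at D8, 1 had more than 50% of its UMIs there, and 2 in place of 0 were higher at D14 than at D8 over all cells. With a mean over cells, 1 was. With 10 CPM added between days, 0 members were lower at D14 and 2 at D21, and with 0.1 CPM 8 were lower at D21. Members found more often beside SOX2 at D8 were 7 without thinning, 7 and 6 with seeds 2 and 3, 6 at 8000 UMIs and 5 with a limit of 20% (from 3). Beside SOX2 at D14 they were 8 without thinning, 2 and 3 with the seeds and 1 with 2 UMIs of the partner (from 5). Beside SFRP2 they were 3 at D8 with a limit of 20% (from 5), and at D14 6 without thinning and 0 with 2 UMIs of the partner (from 2). The causes were not tested. The other 64 count results and 553 single values stayed within their limits, and 95 single values moved. D14 values of the cluster could not be had with 3000 variable genes or limits of 5% and 20%, where it held 4, 2 and 7 D14 cells. No paired analysis was possible because each day has 1 library. Depth limits members with few UMIs, TFAP2B and GRHL2 on every day and TFAP2C and DLX6 at D21.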
